A study of Zea mays with 18 samples.

Results

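Chromatin modifiers and remodelers are the enzymes and complexes that mark or move nucleosomes. The genes described here were those of the deposited maize table whose matched protein name contains histone-lysine, histone deacetylase, histone acetyltransferase, lysine-specific demethylase, cytosine-5, chromomethylase, chromatin remodeling, SWI/SNF or polycomb. The match found 96 of 34474 genes. Stem RNA of maize (Zea mays) was sequenced from 3 hybrids at 3 stages, with 2 libraries in each of the 9 groups and 18 libraries in all. All hybrids have Dan 598 as one parent. The second parent was FAPW for the hybrid of low plant height, CML444 for the middle one and ES40 for the high one. Stems were taken at jointing, when they start to elongate, at big flare, late in the whorl phase, and at tasseling, when the tassel emerges. Each height class is 1 hybrid, so height and genotype cannot be told apart, and no inbred parent or untreated control enters the comparisons. Nothing in the labels ties the libraries of a group to different plants, and p-values therefore reflect library-to-library spread that could be technical.

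Histone acetyltransferases add acetyl groups to histone tails and histone deacetylases remove them. Histone lysine methyltransferases write methyl marks that are read as active or silent depending on the lysine, and demethylases erase them. Polycomb repressive complex 2 keeps developmental genes silent through methylation of lysine 27 of histone H3, remodelers slide or evict nucleosomes with energy from ATP, and DNA methyltransferases copy or add methyl groups on cytosine. In plants several of these systems hold genes and transposons silent.

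The matched names gave 31 histone lysine methyltransferase genes, 19 histone deacetylase genes, 13 remodeler genes, 11 lysine demethylase genes, 9 histone acetyltransferase genes, 9 polycomb genes and 3 DNA methyltransferase genes. One further gene, Zm00001d039578, was matched both to lysine-specific demethylase 4B and to histidyl-tRNA synthetase, and is kept apart. For 8 of the 96 genes the chromatin name is uncertain. Of these 8, 5 owe the name EMBRYONIC FLOWER 2 (EMF2), a polycomb subunit, to 1 wheat protein. It is the only name of Zm00001d040685, it stands beside uncharacterized or hypothetical proteins for Zm00001d023987 and Zm00001d010526, and beside a protein of another kind for Zm00001d009600 and Zm00001d013223. The other 3 also carry the name of a protein of another kind. In the polycomb class, Zm00001d005516 and Zm00001d019968 are named enhancer of polycomb. FPKM (fragments scaled by transcript length and by library size) is a level per length, and 81 of the 96 genes reached 1 FPKM in at least 2 libraries and were tested. The 15 untested genes never exceeded 1.08 FPKM, and no gene was at 0 in every library. The tested genes had a median level of 6.01 FPKM, against 7.66 for all 26792 genes tested. They had a median of 8 transcript models each, against 2 for all genes tested, so many of their values merge several isoforms. In bulk stem tissue, fewer cells of a type and less RNA per cell cannot be told apart.

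The most abundant genes by name came from different classes. The gene Zm00001d023987 had a mean of 505 FPKM, but its polycomb name is 1 of 4, and its KEGG terms in the deposited table are AMP deaminase, a TFIIIB component and La-related protein 7. Apart from the 8 genes of uncertain name, the plant-specific deacetylase HDT1 (Zm00001d038832) led with a mean of 179 FPKM, followed by HDT2 (Zm00001d011139) at 82.9 and SAP18 (Zm00001d015058), an adapter of deacetylase complexes, at 78.4. The remodelers Zm00001d009312, an ATPase of the ISWI type by its KEGG term, and PICKLE (Zm00001d045109), a CHD3-type ATPase, had means of 66.0 and 48.3 FPKM. The highest mean among methyltransferases, demethylases and acetyltransferases was 20.1 FPKM.

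Log2 changes were fitted with limma on log2(FPKM + 1), with 6 libraries a side, and are given with their SE. P-values are adjusted (Benjamini-Hochberg) over all 26792 genes, with a threshold of 0.05. Replicate libraries correlated at 0.9 to 0.941 across genes, which are not independent replicates. Of the 18 libraries, 6 correlated best with a library of another group (both high jointing libraries, both low big flare libraries, low jointing replicate 2 and middle big flare replicate 1). High jointing replicate 2 was closest to high tasseling replicate 2 (r = 0.905, against 0.901 with its own replicate), and low big flare replicate 1 to low jointing replicate 2 (0.914 against 0.9). Relative depth, estimated from the steps between low values, was 0.616 to 1.0 at tasseling, 0.451 to 0.966 at jointing and 0.42 to 0.616 at big flare. Apart from high jointing replicate 1 (0.966) and low jointing replicate 2 (0.66), the jointing libraries had 0.451 to 0.527. Low values were therefore less precise at big flare and in most jointing libraries than at tasseling.

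The hybrids were compared first, to ask which chromatin genes follow the height class. In high against low, 0 genes were higher and 6 were lower, where 9.21% of all genes tested were called, 3.58% higher and 5.63% lower. At an unadjusted p under 0.05, limma gave 1 higher and 13 lower of the 81 genes, where 5857 of all 26792 genes passed in either direction. In middle against low, 1 gene was higher and 7 were lower, where 6.93% of all genes were called, 2.62% higher and 4.31% lower. These comparisons share the 6 low libraries. In high against middle, 1 gene was higher and 1 lower, where 4.44% of all genes were called, 2.37% higher and 2.07% lower. The share of chromatin genes called in any comparison of hybrids was 11.1%, against 13.1% of all genes. The median change was -0.15 in high against low (all genes -0.07) and -0.11 in middle against low (all genes -0.04).

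Between hybrids, the same 5 genes had no overlap between 6 low libraries and 6 others, both in high against low (no overlap in 4.52% of all genes) and in middle against low (3.05% of all genes). All 5 were highest in the low hybrid. They belong to 4 classes: 2 histone lysine methyltransferases, 1 acetyltransferase, 1 deacetylase and 1 gene with a polycomb name.

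The first was a SUVR5-like gene (Zm00001d043649). SUVR5 in Arabidopsis is a zinc finger protein linked to methylation of lysine 9 of histone H3. The jointing libraries of the low hybrid had 18.7 and 15.5 FPKM, those of big flare 25.8 and 33.6, and those of tasseling 20.2 and 23.3. In the 6 middle libraries it ran from 0 to 0.59 FPKM, with a median of 0.055, and in the 6 high libraries from 0 to 0.19, with a median of 0.03. Every low library therefore lay far above all others, at each stage. Middle against low gave a log2 change of -4.35 ± 0.18 (adjusted p = 1.92e-08), beside -4.46 ± 0.18 for high against low. The gene has 77 transcript models, and its KEGG terms also list interleukin-1 receptor-associated kinases and a hydroxymethyltransferase.

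A second gene of the same name did not share this pattern. The other SUVR5-like gene (Zm00001d017798) had a median of 6.56 FPKM in low, 4.98 in middle and 5.45 in high libraries, with ranges of 4.68 to 8.12, 3.25 to 10.4 and 3.75 to 7.34. The ranges overlap throughout, and high against low gave -0.19 ± 0.27 (adjusted p = 0.741). Counting may divide reads among near-identical genes, which makes the values of such gene groups uncertain and was not tested.

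The ASHR1-like gene (Zm00001d047367) encodes a protein with a SET domain, the fold that carries histone methyltransferase activity. It ran from 7.27 to 22.4 FPKM in the low hybrid (median 14.3), from 0.64 to 1.81 in middle (median 0.96) and from 0 to 0.98 in high (median 0.665). The low libraries stood above all others. The log2 change was -3.20 ± 0.18 in high against low (adjusted p = 1.76e-07) and -2.84 ± 0.18 in middle against low (adjusted p = 5.57e-07). Other names of this gene are a SET and MYND domain protein and uncharacterized proteins, and its KEGG terms include a jasmonate ZIM domain protein and a DnaJ homolog. The other ASHR1 gene (Zm00001d013471) had a high against low change of 0.19 ± 0.22 (adjusted p = 0.673).

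The gene Zm00001d033657 was matched to the catalytic subunit of histone acetyltransferase type B, which acetylates newly made histone H4 before it is laid down on DNA. It ran from 8.72 to 22.5 FPKM in low libraries (median 12.1), from 0 to 2.72 in middle (median 0.47) and from 0.19 to 0.6 in high (median 0.455). Low libraries again stood above all others, and within the low hybrid the tasseling libraries, at 18.6 and 22.5 FPKM, were the highest. The change was -3.31 ± 0.20 in high against low (adjusted p = 2.53e-07) and -3.01 ± 0.20 in middle against low (adjusted p = 6.99e-07). The gene has 66 transcript models.

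The other tested genes matched to histone acetyltransferase 1, the same enzyme by its KEGG term, were not called between hybrids. High against low was -0.40 ± 0.20 for Zm00001d020182 (adjusted p = 0.285) and -0.02 ± 0.22 for Zm00001d049367 (adjusted p = 0.978).

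The HDT3-like gene Zm00001d012323 belongs to the plant-specific HD2 family of deacetylases. It ran from 3.89 to 6.7 FPKM in low (median 4.75), from 0.19 to 1.24 in middle (median 1.06) and from 0.3 to 1.39 in high (median 0.87). No middle or high library reached a low one. The change was -1.76 ± 0.22 in high against low (adjusted p = 0.000135) and -1.69 ± 0.22 in middle against low (adjusted p = 0.000231). Its KEGG terms are nucleophosmin and a CTD small phosphatase-like protein. The more abundant HDT3-like gene (Zm00001d012092) changed by -0.97 ± 0.33 (adjusted p = 0.0998), which did not pass.

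The 5 HD2 genes that were not tested never exceeded 1.08 FPKM, and their levels are a description. A gene matched to HDT2 (Zm00001d010439), whose KEGG term is a dual-specificity kinase, was listed at 0.28 to 1.08 FPKM in the 6 low libraries. It was listed at 0 in all 6 middle libraries and at 0 to 0.11 in the 6 high libraries, so that low libraries did not overlap the others. The other 4 were matched to HDT1, were listed at 0 in every high library, and overlapped between low and middle libraries. Zm00001d010763 ran from 0 to 0.87 FPKM in low and 0 to 0.51 in middle, and Zm00001d032210 from 0 to 0.38 in low and 0 to 0.06 in middle. Zm00001d035265 ran from 0 to 0.26 FPKM in low and was listed at 0 in every middle library, and Zm00001d003289 ran from 0 to 0.13 in low and 0 to 0.17 in middle.

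The fifth gene, Zm00001d009600, carries the EMF2 name beside those of a sugar transporter and of transposon polyproteins, and its KEGG term is a glucose transporter. It ran from 8.51 to 17.8 FPKM in low (median 11.3), from 4.07 to 6.6 in middle (median 5.35) and from 2.25 to 4.35 in high (median 3.81). Its medians descended from low through middle to high, and the middle and high libraries overlapped. The change was -1.56 ± 0.20 in high against low (adjusted p = 0.000254) and -1.06 ± 0.20 in middle against low (adjusted p = 0.00607).

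**Figure D1:**
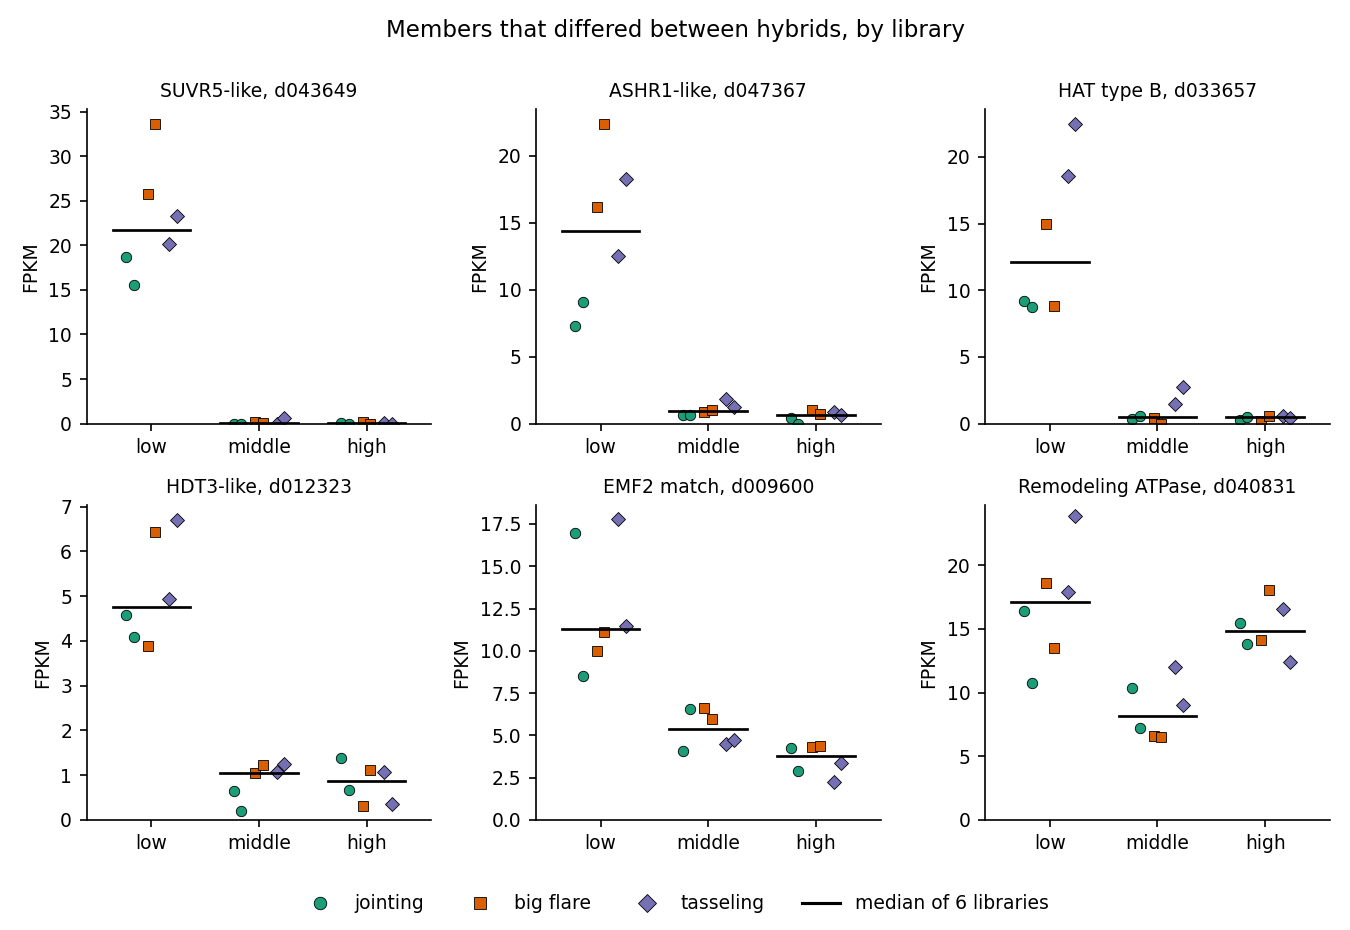
FPKM of 6 chromatin genes in each library, by hybrid on the x axis. Marker shape and colour give the stage and black lines the median of 6 libraries. For the first 5 genes every low library lies above all middle and high libraries, and for the sixth all 6 middle libraries lie below all 6 high libraries.

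The middle hybrid stood apart for a remodeling ATPase. The gene Zm00001d040831, of the ISWI type by its KEGG term, ran from 10.8 to 23.8 FPKM in low (median 17.1), from 6.48 to 12.0 in middle (median 8.14) and from 12.4 to 18.1 in high (median 14.8). No middle library reached a high one (no overlap in 2.29% of all genes), and 5 of 6 middle libraries lay below every low one. Middle against low was -0.88 ± 0.17 (adjusted p = 0.00581) and high against middle was 0.76 ± 0.17 (adjusted p = 0.0208). The second of these was lost in 6 of 27 alternatives, with an adjusted p of up to 0.0689. The other gene of this type, Zm00001d009312, had a middle against low change of 0.06 ± 0.18 (adjusted p = 0.918).

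The gene Zm00001d048145 was higher in middle than in low, by 0.78 ± 0.17 (adjusted p = 0.0157). It ran from 3.6 to 7.04 FPKM in low, from 6.55 to 12.1 in middle and from 4.5 to 6.55 in high. High against middle was -0.71 ± 0.17 (adjusted p = 0.0363), lost in 15 of 27 alternatives. It is named histone-lysine N-methyltransferase 2B-like but also pyruvate dehydrogenase kinase. Without the 8 genes of uncertain name 0 of 73 genes were higher in middle against low, against 1 at an unadjusted p under 0.05 in limma. At that unadjusted p, 5013 of all 26792 genes passed in either direction.

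The remaining calls between hybrids were close to the threshold. HAC-like 1 (Zm00001d054003), a CBP-type acetyltransferase, ran from 8.14 to 15.1 FPKM in low and from 5.63 to 10.8 in high, and fell by 0.60 ± 0.17 (adjusted p = 0.0438). That call was lost in 19 of 27 alternatives. The deacetylase 6 gene Zm00001d035313 was lower in middle than in low by -0.84 ± 0.23 (adjusted p = 0.0483), lost in 21 of 27.

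**Figure D2:**
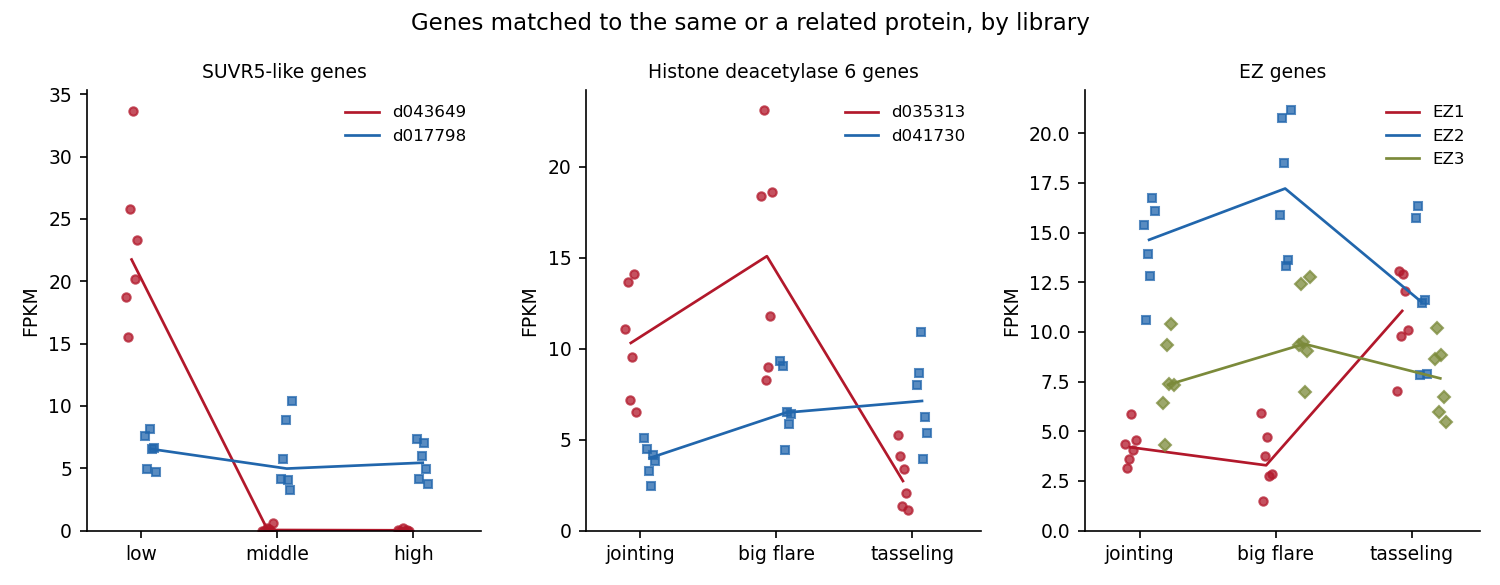
FPKM of genes with the same or a related name, with points for libraries and lines through the medians of 6 libraries. On the left, 1 SUVR5-like gene is at 15.5 FPKM or more in the low hybrid and under 0.6 in the others while its namesake stays between 3.25 and 10.4; in the middle, deacetylase 6 genes by stage; on the right, EZ1, EZ2 and EZ3 by stage.

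The stages were compared next, to ask how chromatin genes move as the stem matures. From jointing to big flare, 7 genes were higher and 1 was lower, where 12.4% of all genes were called, 7.29% higher and 5.06% lower. The median change was 0.23, against 0.07 for all genes. Of the 81 genes 66 were above 0, but the share of all genes above 0 was not counted. Scaling by median of ratios gave 4 higher and 1 lower. Over all genes the same scaling turned 1954 higher and 1356 lower into 1414 higher and 1767 lower, with a median of -0.02. The call of each of these 8 genes was lost in at least one alternative. The count of higher genes was 0 without low big flare replicate 2, without middle jointing replicate 2 or without high jointing replicate 2. It was 1 without low jointing replicate 2, middle big flare replicate 1 or high big flare replicate 2, 2 without high big flare replicate 1, 3 without middle big flare replicate 2 and 4 without low jointing replicate 1. It was also 1 without high jointing replicate 2 and low big flare replicate 1 together, which each lay closest to a library of another stage. High jointing replicate 1 and low jointing replicate 2 also lay closest to a library of another stage and were kept in that fit.

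PICKLE (Zm00001d045109), which in Arabidopsis represses embryonic and meristem traits, was among the 7. It ran from 36.1 to 46.4 FPKM at jointing (median 41.1), from 53.4 to 90.7 at big flare (median 65.6) and from 20.9 to 55.0 at tasseling (median 34.3). Big flare libraries did not overlap jointing libraries (no overlap in 4.96% of all genes). It rose by 0.69 ± 0.18 (adjusted p = 0.0279) and then fell by 0.92 ± 0.18 from big flare to tasseling (adjusted p = 0.00142). The ISWI-type gene Zm00001d009312 followed the same course, from a median of 52.9 FPKM through 86.9 to 60.6. It rose by 0.68 ± 0.18 (adjusted p = 0.0317) and fell by 0.67 ± 0.18 (adjusted p = 0.0111). In all, 5 of 81 genes (6.17%) rose and then fell, where 5.23% of all genes did so.

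From big flare to tasseling the movement was largest. There were 9 genes higher and 24 lower, where 41.6% of all genes were called, 22.4% higher and 19.2% lower. Of the chromatin genes 11.1% were higher and 29.6% lower. The median change was -0.21, against 0.01 for all genes. Quantile normalization gave 8 higher and 28 lower, and over all genes it turned 6002 higher and 5144 lower into 5575 higher and 6149 lower, with a median of -0.06. By class, 7 of 14 deacetylases, 6 of 12 remodelers and 2 of 8 genes with a polycomb name were lower. In each of these classes 0 were higher, also at an unadjusted p under 0.05 in limma. The 2 with a polycomb name were FIE2 and Zm00001d023987, whose name is uncertain. The EZ genes of the polycomb complex are counted with the methyltransferases. Of 27 histone lysine methyltransferases, 6 were lower and 3 higher, and of 10 demethylases, 2 were lower and 2 higher. The acetyltransferases gave 2 of 6 higher and the DNA methyltransferases 2 of 3 higher, with 0 lower in both, also at an unadjusted p under 0.05. At that unadjusted p in limma, 13175 of all 26792 genes passed in either direction. Of the 33 calls, 21 (6 higher and 15 lower) passed under every alternative tried.

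**Figure D3:**
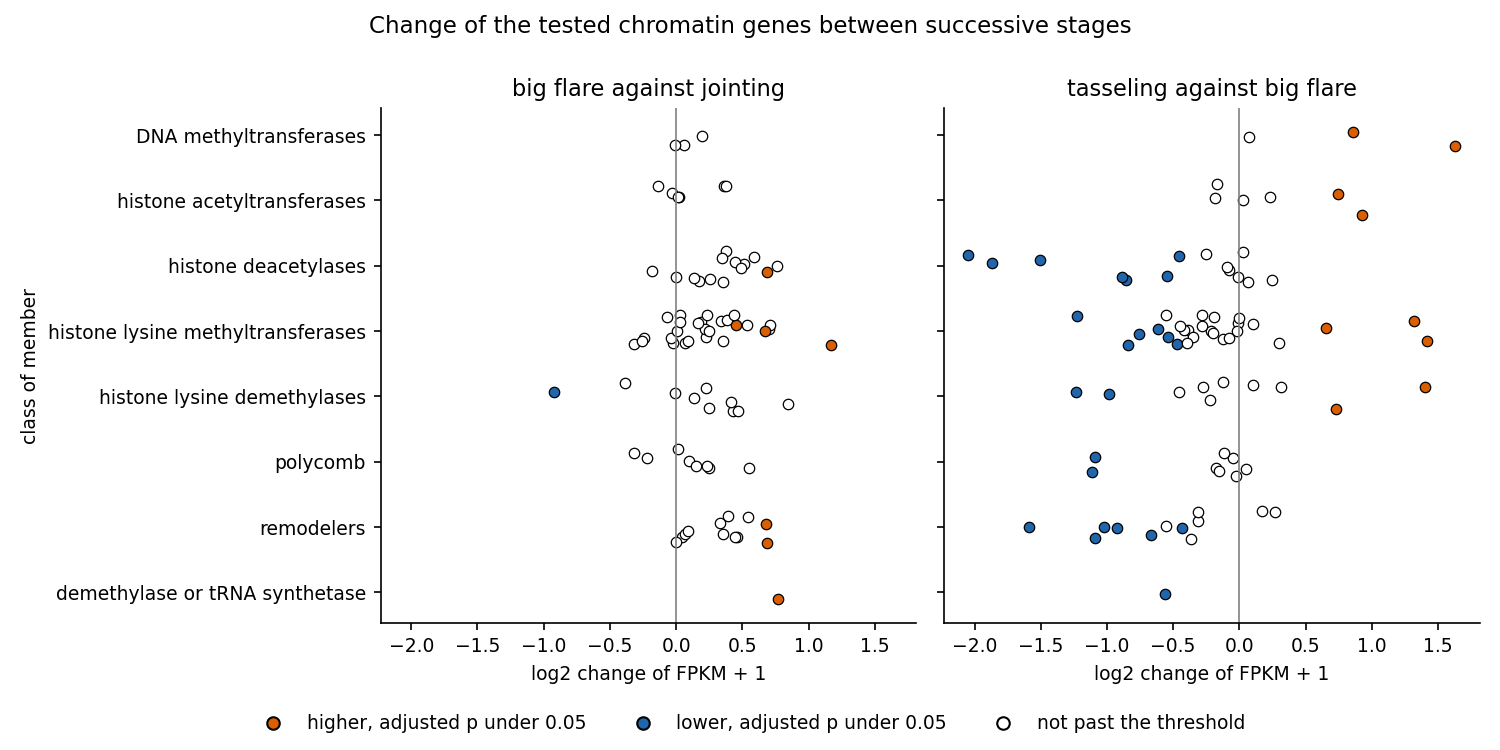
Log2 change of FPKM + 1 (x axis) of the 81 tested genes, by class (y axis), from jointing to big flare and from big flare to tasseling. Filled points passed an adjusted p of 0.05. At the second step deacetylases, remodelers and genes with a polycomb name have filled points only below 0. DNA methyltransferases and acetyltransferases have them only above 0. The EZ genes are among the histone lysine methyltransferases.

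Against jointing, tasseling had 10 genes higher and 11 lower, where 29.9% of all genes were called, 18.8% higher and 11.1% lower. The median change was 0.02, against 0.08 for all genes. Quantile normalization gave 9 higher and 14 lower, and over all genes it turned 5050 higher and 2965 lower into 4373 higher and 3957 lower. The 11 lower calls were sensitive to single libraries. They were 4 without low jointing replicate 1, low tasseling replicate 1 or high tasseling replicate 2. They were 6 without either middle jointing library or without middle tasseling replicate 2, and 7 without low tasseling replicate 2, middle tasseling replicate 1 or high jointing replicate 1. The 10 higher calls were 6 without low tasseling replicate 2 or middle tasseling replicate 1.

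Among the genes that rose at tasseling, DNA methyltransferase 3 (Zm00001d002330), also named chromomethylase 3, had the largest change against big flare. Chromomethylases keep non-CG methylation in place by binding nucleosomes methylated at lysine 9 of histone H3. It ran from 1.23 to 4.94 FPKM at jointing (median 1.80), from 1.45 to 4.09 at big flare (median 2.33) and from 3.66 to 20.3 at tasseling (median 10.6). In 5 of 6 tasseling libraries it exceeded every big flare library, and high tasseling replicate 2, at 3.66 FPKM, did not. It rose by 1.63 ± 0.29 against big flare (adjusted p = 0.000797) and by 1.69 ± 0.29 against jointing (adjusted p = 0.0013), in all 3 hybrids.

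The DNA methyltransferase 1B-like gene (Zm00001d018977), by its name a maintenance methyltransferase, had medians of 13.5, 12.8 and 22.0 FPKM at jointing, big flare and tasseling. It rose by 0.86 ± 0.30 against big flare (adjusted p = 0.0362), a call lost in 7 of 27 alternatives. Its KEGG terms also list 4-coumarate--CoA ligase. The third gene, named DNA methyltransferase 1 (Zm00001d026291), was the most abundant of the 3 at a mean of 19.2 FPKM. Its change was 0.07 ± 0.16 (adjusted p = 0.762).

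EZ1, EZ2 and EZ3 are the maize Enhancer of zeste genes, which encode the methyltransferase subunit of polycomb repressive complex 2. EZ1 (Zm00001d036296) ran from 3.13 to 5.88 FPKM at jointing (median 4.20), from 1.49 to 5.9 at big flare (median 3.29) and from 7.03 to 13.1 at tasseling (median 11.1). All 6 tasseling libraries exceeded all earlier ones. EZ1 rose by 1.42 ± 0.25 against big flare (adjusted p = 0.000857) and by 1.16 ± 0.25 against jointing (adjusted p = 0.00505).

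EZ2 (Zm00001d047636), chosen after its values were seen, moved the other way. It ran from 13.3 to 21.2 FPKM at big flare (median 17.2) and from 7.84 to 16.4 at tasseling (median 11.5), and fell by 0.54 ± 0.17 (adjusted p = 0.0257). The ranges overlap, and the call was lost in 6 of 27 alternatives, with an adjusted p of up to 0.0797. EZ3 (Zm00001d028890) changed by -0.35 ± 0.18 (adjusted p = 0.14).

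The WD40 subunit of the same complex, FIE2 (Zm00001d024698), fell at tasseling. It ran from 8.15 to 14.8 FPKM at jointing (median 11.6), from 8.48 to 15.7 at big flare (median 12.9) and from 3.76 to 6.9 at tasseling (median 5.54). No tasseling library reached an earlier one (no overlap with big flare in 17.9% of all genes, and with jointing in 10.4%). FIE2 fell by 1.11 ± 0.19 against big flare (adjusted p = 0.000595) and by 0.96 ± 0.19 against jointing (adjusted p = 0.00274). FIE1 (Zm00001d049608), an endosperm gene in maize, was untested at 0.17 FPKM or less. The gene Zm00001d023987, with the uncertain EMF2 name, fell by 1.09 ± 0.21 from a median of 719 FPKM at big flare to 357 at tasseling (adjusted p = 0.00145). Of EZ1, EZ2, EZ3 and FIE2, 1 rose and 2 fell at this step, where 22.4% of all genes were higher and 19.2% lower.

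Histone acetyltransferase 1 (Zm00001d020182) ran from 1.86 to 3.96 FPKM at jointing (median 2.41), from 0.83 to 4.11 at big flare (median 2.14) and from 3.94 to 6.38 at tasseling (median 5.06). It rose by 0.93 ± 0.20 against big flare (adjusted p = 0.00315) and by 0.79 ± 0.20 against jointing (adjusted p = 0.0122). In 5 of 6 tasseling libraries the level exceeded every big flare library. Its namesake Zm00001d049367 changed by -0.17 ± 0.22 (adjusted p = 0.568). The type B gene that was high in the low hybrid, Zm00001d033657, also rose against big flare, by 0.75 ± 0.20 (adjusted p = 0.0102). That change is an average over the hybrids, and the medians of this gene in middle and high were under 1 FPKM.

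The demethylase 5C-like gene (Zm00001d014422), of the JARID1 family whose members remove methyl groups from lysine 4 of histone H3, was lowest at big flare. It ran from 2.41 to 5.84 FPKM at jointing (median 3.47), from 0.57 to 2.92 at big flare (median 1.52) and from 4.28 to 8.28 at tasseling (median 5.10). All tasseling libraries exceeded all big flare libraries. It fell by 0.92 ± 0.28 at the first step (adjusted p = 0.0476, lost in 19 of 27 alternatives) and rose by 1.40 ± 0.28 at the second (adjusted p = 0.00158).

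Among the methyltransferases that rose, the ATXR6-like gene (Zm00001d015064), chosen after its values were seen, ran from 0 to 0.7 FPKM at big flare (median 0.395) and from 0.57 to 6.71 at tasseling (median 2.25). ATXR6 of Arabidopsis writes a single methyl group on lysine 27 of histone H3 as DNA is copied. The gene rose by 1.32 ± 0.30 (adjusted p = 0.00387). The second gene named ATXR6 (Zm00001d011802) stayed between 0.15 and 1.73 FPKM over all libraries and was not called in any comparison. The ATX4-like gene (Zm00001d039355), also outside the naming rule, rose by 0.65 ± 0.20 (adjusted p = 0.0219), lost in 7 of 27 alternatives. Its KEGG terms also list alpha-L-fucosidase.

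The HD2 deacetylases, which occur in plants and sit mainly in the nucleolus, include the most abundant genes that fell. HDT1 (Zm00001d038832) ran from 117 to 255 FPKM at jointing (median 156), from 204 to 384 at big flare (median 273) and from 24.4 to 132 at tasseling (median 96.2). No tasseling library reached a big flare one. It fell by 1.87 ± 0.34 against big flare (adjusted p = 0.000878) and by 1.11 ± 0.34 against jointing (adjusted p = 0.0258), the second call being lost in 8 of 27 alternatives. HDT2 (Zm00001d011139) had medians of 68.7, 108 and 67.9 FPKM over the stages. It fell by 0.85 ± 0.20 from big flare to tasseling (adjusted p = 0.00447), with no overlap. The HDT3-like gene Zm00001d012092 fell by 1.50 ± 0.33 (adjusted p = 0.00336) from a median of 16.4 to 5.24 FPKM, also with no overlap.

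The zinc-dependent deacetylases, the family shared with animals and yeast, numbered 7 by their KEGG terms. From big flare to tasseling 2 fell and 5 were not called, where 19.2% of all genes were lower and 22.4% higher. Zm00001d018864, named only histone deacetylase, ran from 6.09 to 12.2 FPKM at big flare (median 8.24) and from 4.13 to 7.05 at tasseling (median 5.02). It fell by 0.55 ± 0.17 (adjusted p = 0.0237), a call lost in 5 of 27 alternatives. The histone deacetylase 10 gene Zm00001d042974 ran from 1.25 to 5.91 FPKM at big flare (median 3.37) and from 0.81 to 1.7 at tasseling (median 1.36). It fell by 0.88 ± 0.27 (adjusted p = 0.0187), a call lost in 2 of 26 alternatives. The ranges overlap for both genes.

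The 3 most abundant of this family were not called in any comparison. HDA101 (Zm00001d053595), a maize deacetylase known from seed and plant development, had medians of 41.0, 43.6 and 41.9 FPKM over the 3 stages. The deacetylase 19 gene (Zm00001d006780) had medians of 31.7, 25.6 and 33.3 FPKM and HDA108 (Zm00001d050139) medians of 13.0, 14.9 and 12.8. The deacetylase 9 gene (Zm00001d003813) changed by -0.08 ± 0.16 from big flare to tasseling (adjusted p = 0.738) and the deacetylase 11 gene (Zm00001d046348) by -0.01 ± 0.25 (adjusted p = 0.982). Outside both families, SAP18 (Zm00001d015058) fell by 0.45 ± 0.15 (adjusted p = 0.0303), a call lost in 8 of 27 alternatives.

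Both genes named histone deacetylase 6 carry a KEGG term of the SIR2 family, deacetylases that need NAD, and they differed in course. The first, Zm00001d035313, ran from 6.52 to 14.1 FPKM at jointing (median 10.3), from 8.26 to 23.1 at big flare (median 15.1) and from 1.14 to 5.28 at tasseling (median 2.73). It fell by 2.05 ± 0.23 against big flare (adjusted p = 5.2e-05) and by 1.61 ± 0.23 against jointing (adjusted p = 0.000523), with no tasseling library reaching an earlier one. The second, Zm00001d041730, had means of 3.89 ± 0.929, 6.94 ± 1.90 and 7.20 ± 2.51 FPKM over the stages (SD, n = 6). It rose by 0.71 ± 0.21 from jointing to tasseling (adjusted p = 0.0223), a call lost in 6 of 27 alternatives.

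Remodelers fell or did not pass at tasseling. The gene Zm00001d006798, matched to the SNF2-type ATPase CHR12, ran from 12.4 to 25.1 FPKM at jointing (median 20.4), from 21.8 to 35.4 at big flare (median 27.2) and from 4.95 to 11.8 at tasseling (median 8.44). No tasseling library reached an earlier one. It fell by 1.59 ± 0.20 against big flare (adjusted p = 0.000107) and by 1.05 ± 0.20 against jointing (adjusted p = 0.00259). CHR12 in Arabidopsis is linked to growth arrest under stress. Zm00001d050642 and Zm00001d022313, named SWI/SNF-related subfamily A member 3-like, were chosen after their values were seen. They changed by -1.09 and -1.02 against big flare. The KEGG term of Zm00001d050642 is DNA repair protein RAD5, so its place among the remodelers rests on its name. The SWI3 genes, which encode core subunits of SWI/SNF complexes, were not called in any comparison (Zm00001d013391, Zm00001d003284 and Zm00001d033825, chosen after their values were seen), with mean levels of 17.5, 10.7 and 5.34 FPKM.

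**Figure D4:**
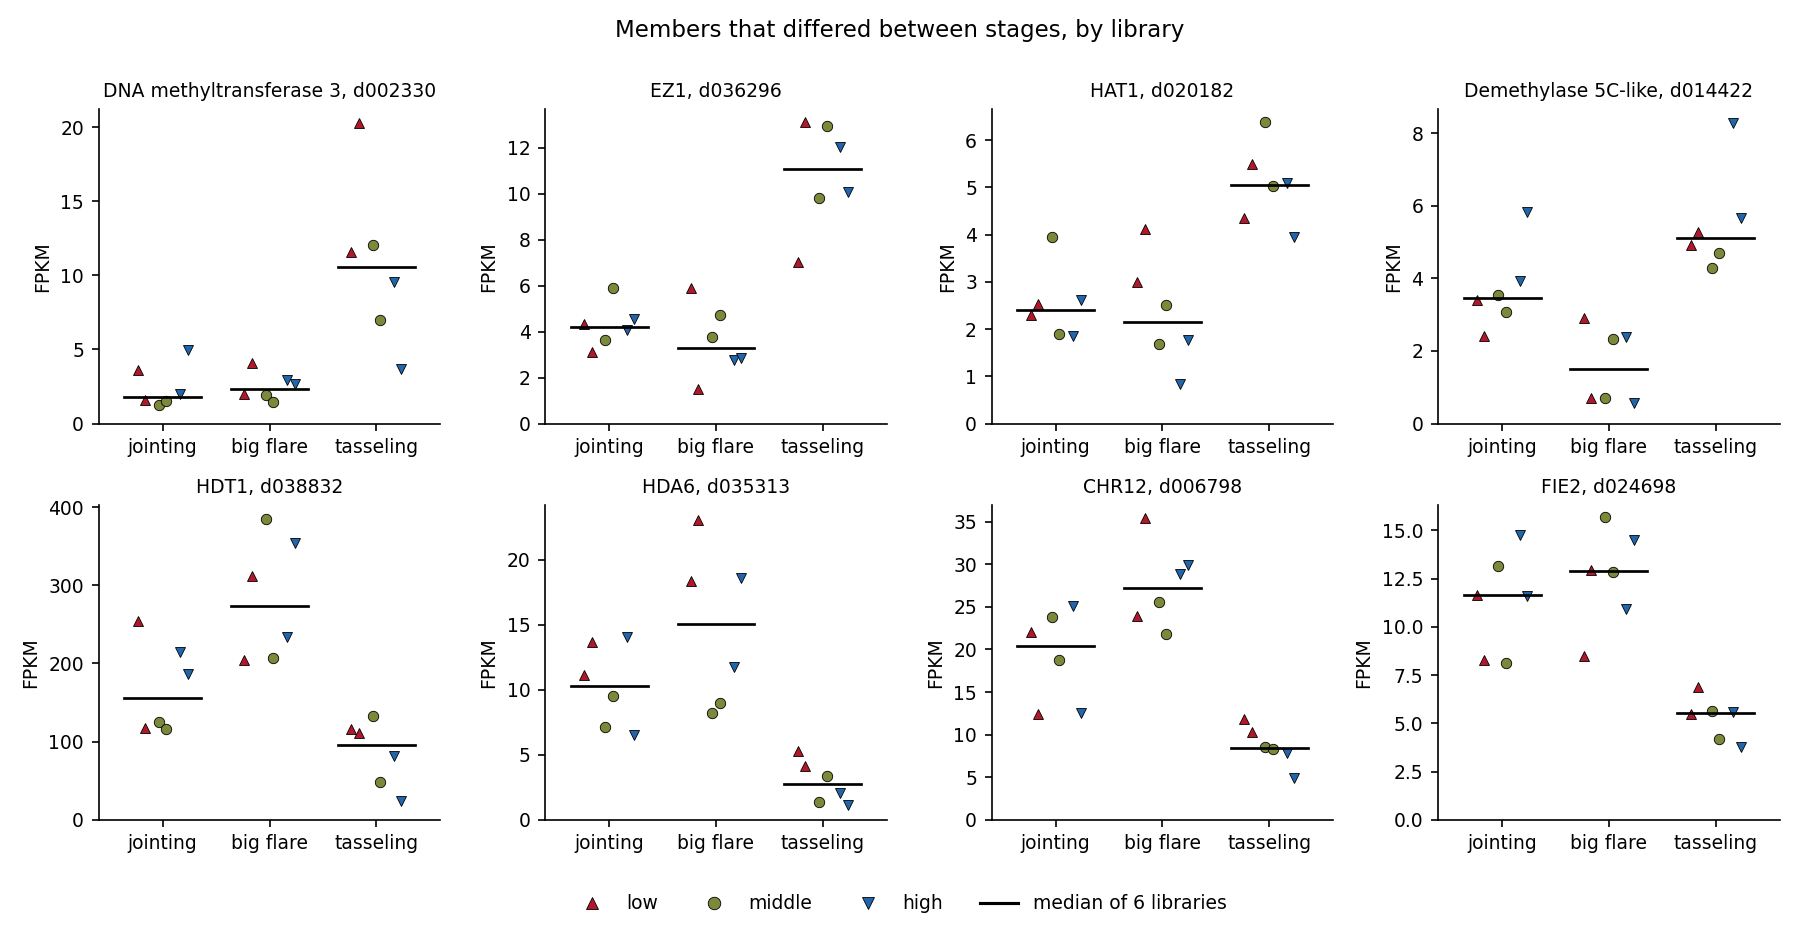
FPKM of 8 chromatin genes in each library, by stage on the x axis. Marker shape and colour give the hybrid and black lines the median of 6 libraries. The upper 4 genes have their highest medians at tasseling, from 5.06 to 11.1 FPKM, and the lower 4 their lowest, from 2.73 FPKM for deacetylase 6 to 96.2 for HDT1.

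The JMJ14 genes encode JmjC demethylases, which in Arabidopsis act on lysine 4 of histone H3, and their values are uncertain because several were matched to the same protein. Zm00001d051959 fell by 1.23 ± 0.31 from big flare to tasseling (adjusted p = 0.00709), from a median of 5.51 to 2.04 FPKM with overlapping ranges. Zm00001d051964 fell by 0.98 ± 0.35 (adjusted p = 0.0374), a call lost in 11 of 27 alternatives. The REF6-like gene Zm00001d023788, named for a demethylase of lysine 27, stayed between 2.24 and 6.07 FPKM and was not called. The most abundant demethylase, 5B-like Zm00001d014900, stayed between 5.75 and 12.4 FPKM and was not called.

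Among the abundant methyltransferases, Zm00001d019195, a lysine 9 type enzyme by its KEGG term, ran from 20.4 to 35.6 FPKM at big flare and from 10.5 to 15.6 at tasseling. It fell by 0.84 ± 0.15 (adjusted p = 0.00089), with no overlap. The related Zm00001d010646 fell by 0.61 ± 0.23 (adjusted p = 0.047), a call lost in 16 of 27 alternatives. ATXR3 (Zm00001d049457), a lysine 4 methyltransferase in Arabidopsis, stayed between 7.91 and 22.6 FPKM and was not called.

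Of the 81 genes, 39 (48.1%) were called in none of the 6 comparisons, where the share of all genes was 42.0%, and 36 (44.4%, all genes 50.5%) were called between stages. Zm00001d047367, Zm00001d033657 and Zm00001d035313 were called both between hybrids and between stages, which is 3.7% of the 81, against 5.64% of all genes. The hybrid-by-stage interaction, a moderated F test in limma, called 0 of 81 genes, where 0.056% of all genes were called. By the same test 0 of 81 had an unadjusted p under 0.05, where 1335 of all 26792 genes did. A p that misses the threshold does not show that the hybrids took the same course, and each group had only 2 libraries.

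Lists of genes outside the naming rule were counted beside them, and are read against the 22.4% of all genes that were higher and the 19.2% that were lower from big flare to tasseling. Readers, which bind modified histones or DNA, were genes named for a bromodomain, a chromodomain or methyl-CpG binding. They gave 0 higher and 5 lower of 12 tested at that step. RNA-directed DNA methylation guides methylation by small RNAs. Its list was found by names such as argonaute, dicer and RNA-dependent RNA polymerase, which do not separate it from other small RNA pathways. That list gave 2 higher and 5 lower of 22 tested. Histone chaperones, which hand histones to DNA, gave 7 higher and 5 lower of 17, and demethylases named by other words 3 higher and 1 lower of 14. In high against low, 3.58% of all genes were higher and 5.63% lower. There the lists gave 0 higher and 1 lower of 12 readers, and 1 higher and 1 lower of 22 small RNA pathway genes. They gave 0 of 17 chaperones, and 1 higher and 0 lower of 14 demethylases.

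Markers of other cell types moved between the stages too. Markers of dividing cells (replication licensing factors, PCNA, mitotic cyclins and ribonucleotide reductase) were higher for 6 and lower for 1 of 15 tested from big flare to tasseling, beside 22.4% and 19.2% of all genes. Their summed level was 27.8 to 75.2 FPKM at jointing, 31.7 to 61.6 at big flare and 53.2 to 181 at tasseling, and 0 to 4 of the 16 markers were listed at 0 in a library. PCNA genes were among those that rose, Zm00001d051995 by 2.08 and Zm00001d018415 by 1.85 on the log2 scale. The summed level had its highest median at tasseling (120 FPKM), as had DNA methyltransferase 3, EZ1 and histone acetyltransferase 1. By library it overlapped between stages, with high tasseling replicate 2 (53.2 FPKM) below low jointing replicate 1 (75.2 FPKM). From big flare to tasseling 9 chromatin genes were higher and 24 lower. The part of dividing cells in these changes was not tested.

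Genes named for MADS-box factors, taken as markers of floral organs, were 13 higher and 1 lower of 29 tested from jointing to big flare, where 7.29% of all genes were higher and 5.06% lower. They summed to 429 to 566 FPKM at jointing, 790 to 1172 at big flare and 511 to 781 at tasseling, so that big flare libraries lay above all others, as they lay above all jointing libraries for PICKLE. Of the 55 genes in the list, 20 to 28 were listed at 0 in a library. Green tissue markers (photosystem and chlorophyll-binding proteins) were 1 higher and 14 lower of 49 tested in tasseling against jointing, where 18.8% of all genes were higher and 11.1% lower. They summed to 5382 to 13845 FPKM at jointing, 4117 to 9461 at big flare and 4491 to 8483 at tasseling, with overlapping ranges, and 2 to 7 of 52 were listed at 0 in a library.

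Xylem markers, the check of the stem label, summed to 1296 to 4241 FPKM at jointing, 413 to 1744 at big flare and 752 to 6271 at tasseling, and 6 to 12 of the 31 were listed at 0 in a library. Of 22 tested, 8 were higher and 3 lower from big flare to tasseling, beside 22.4% and 19.2% of all genes. In high against low, 1 dividing-cell marker was higher and 1 lower, and 3 of 29 floral, 1 of 49 green tissue and 1 of 22 xylem markers were lower with 0 higher, beside 3.58% of all genes higher and 5.63% lower. The part of these floral, green tissue and xylem levels in the changes of chromatin genes was not tested.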

How the data were processed

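Poly-A RNA was read as paired-end libraries, per the labels' protocols. The authors deposited FPKM values for 34474 genes in 18 libraries. Per the submitters' processing notes, the build was B73 RefGen_v4 and the software DESeq 1.28.0, Cuffdiff, Cufflinks 2.2.1 and TopHat2, with no order or role for each. Whether fragments were assigned by strand is not given in the sources used here. FPKM keeps no counts, so absolute depth is unknown. Relative depth was fitted to low values of 4290 genes with a single transcript model, and 99.0% of 306 ordered library pairs lay within 0.05 log2 units of the fit.

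Members were found by name in the deposited matches; RefSeq symbols (Zm-B73-REFERENCE-NAM-5.0, not the authors' build, names only) were found for 56. Members and gene lists were chosen with earlier results of these data known. The named genes are, per comparison, the 5 largest called changes each way with a mean of at least 5 FPKM on the higher side, the 3 most abundant per class, and each called gene without overlap between hybrids.

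limma 3.58.1 in R 4.3.3 fitted 9 group means to log2(FPKM + 1) with a mean trend and 9 residual degrees of freedom, two-sided, for genes at 1 FPKM in 2 or more libraries. This scale understates changes of low genes. Alternatives changed the scaling, pseudocount, filter, trend, replicate block and libraries. The procedure was tested on simulated data.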

Additional observations from a re-analysis of the deposited data

How the results depend on the processing

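Of 78 member calls in the 6 comparisons, 42 passed under every alternative that gave a value, and none of these values changed direction. Among the 8 calls of middle against low 7 did so, and among the 6 of high against low 5. For big flare against jointing, members higher numbered 4 with median-of-ratios scaling and 4 in a fit on the libraries compared. They numbered 1 without high jointing replicate 2 and low big flare replicate 1 together. These were 2 of the libraries that were closest to a library of another stage. The 1 member lower there was 0 with a pseudocount of 0.1, no filter, and the fit on the libraries compared. The 1 member lower in high against middle was 0 with quantile normalization, without those 2 libraries, in the fit on the libraries compared, and without the 8 members of uncertain name, an alternative chosen after seeing the data that also left 0 members higher in middle against low. Tasseling against jointing gave 7 members lower in the fit on the libraries compared. Over all genes, high against middle gave 747 with a filter of 5 FPKM against 1190, and the interaction 82 with no filter and 2 with a filter of 5 FPKM, against 15. The cause was not tested.

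Leaving out each library in turn gave these ranges. Members higher were 1 to 2 in middle against low, 0 to 1 in high against middle, 0 to 7 in big flare against jointing, 6 to 9 in tasseling against big flare and 6 to 10 in tasseling against jointing. Members lower were 5 to 6 in high against low, 6 to 7 in middle against low, 0 to 2 in high against middle, 0 to 1 in big flare against jointing, 16 to 24 in tasseling against big flare and 4 to 11 in tasseling against jointing. All genes called were 1594 to 3977 in big flare against jointing and 11 to 27 in the interaction.

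With the replicate block, members higher and lower were 5 and 0 in big flare against jointing, 9 and 23 in tasseling against big flare, 10 and 11 in tasseling against jointing, 0 and 6 in high against low, 1 and 6 in middle against low, and 1 and 1 in high against middle. The numbers do not pair the libraries: over 36 pairs of groups, same-numbered deviations correlated at -0.43 to 0.293 (median -0.007), and 8 were over 0.1.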
